A study of Mus musculus with 3 samples.

Results

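The nuclear-encoded subunit genes of the mitochondrial respiratory chain and of ATP synthase were compared across 3 lines of C2C12 cells, an established mouse myoblast line. The members were the probe sets whose only gene symbol begins as those of the subunits do (Nduf for complex I, Sdh for complex II, Uqcr for complex III, Cox for complex IV, Atp5 for complex V). Assembly factors named Ndufaf were not members, nor were the isoform genes Cox6a1, Cox6a2, Cox7a1, Cox7a2, Cox8a and Cox8b. This gave 153 probe sets and 75 genes of 18194 genes measured: 35 for complex I, 4 for complex II, 8 for complex III, 11 for complex IV and 17 for complex V. Each line carried a short hairpin RNA (shRNA) against a forkhead transcription factor, FoxO1, FoxO3 or FoxO4. All 3 were grown in DMEM with puromycin from colonies screened for depletion of the targeted FoxO gene. Each line was measured on 1 Affymetrix array, so hairpin and colony cannot be told apart, no test between lines was possible, and differences are given by size only. The authors' log2 ratio to control RNAi, with its change call, is used for the FoxO1-labelled array, and the ratios of the other lines are not used because their rows did not follow those arrays' signals. Where a control signal is given, it is the one implied by taking that ratio off the FoxO1-labelled signal, and it is approximate.

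Complex I (NADH dehydrogenase) and complex II (succinate dehydrogenase) pass electrons to ubiquinone, complex III passes them on to cytochrome c, and complex IV (cytochrome oxidase) passes them to oxygen. Complexes I, III and IV pump protons, and complex V, the ATP synthase, uses the proton gradient to make ATP. Skeletal muscle is rich in these complexes, and their nuclear genes are known targets of the factors NRF1, GABP (an ETS family factor), YY1 and the estrogen-related receptors (ERR), which act with the coactivator PGC-1alpha.

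Promoters of 61 member genes were matched by symbol to RefSeq (GRCm38.p6), as 66 entries from 250 bases before to 50 bases after the gene's start. Both strands were searched for the letters of 4 motifs. The NRF1 motif (GCGCA and GCGC with any base between them) was in 15 of the 66 entries (22.7%) and in 4.60% of all 32851 promoters. The ETS motif CCGGAAG was also in 15 (22.7%), against 8.86% of all. The YY1 motif AANATGGCG was in 9 (13.6%), against 2.38% of all, and the ERR motif TCAAGGTCA in 2 (3.03%), against 0.423%. In all, 34 member genes held at least 1 of the 4 motifs, and in no member promoter did matches of different motifs overlap. A match describes these letters and is not a shown binding site. The following 4 promoters are shown because they hold such matches and belong to genes described below: Ndufs5, the complex I gene lowest against the control, Atp5h, of the peripheral stalk of ATP synthase, Sdhd, of complex II, and Cox6b1, of complex IV. All lie on the minus strand and are written 5′ to 3′ along the gene, with the motif matches, on either strand, in capitals.
Ndufs5, NRF1 match, chr4:123718137-123718436: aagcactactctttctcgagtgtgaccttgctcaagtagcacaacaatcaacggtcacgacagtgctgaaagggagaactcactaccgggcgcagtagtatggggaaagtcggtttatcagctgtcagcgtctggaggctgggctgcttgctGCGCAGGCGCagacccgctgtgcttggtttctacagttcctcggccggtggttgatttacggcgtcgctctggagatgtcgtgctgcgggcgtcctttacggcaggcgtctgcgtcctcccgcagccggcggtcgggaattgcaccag
Atp5h, NRF1 and ETS matches, chr11:115419870-115420169: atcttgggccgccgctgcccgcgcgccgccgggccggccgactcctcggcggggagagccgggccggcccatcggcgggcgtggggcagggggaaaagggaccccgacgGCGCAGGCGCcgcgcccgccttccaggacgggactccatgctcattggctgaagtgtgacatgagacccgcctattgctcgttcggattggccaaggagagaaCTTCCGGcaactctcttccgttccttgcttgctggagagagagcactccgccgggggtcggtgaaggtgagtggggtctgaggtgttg
Sdhd, NRF1, ETS and ERR matches, chr9:50603800-50604099: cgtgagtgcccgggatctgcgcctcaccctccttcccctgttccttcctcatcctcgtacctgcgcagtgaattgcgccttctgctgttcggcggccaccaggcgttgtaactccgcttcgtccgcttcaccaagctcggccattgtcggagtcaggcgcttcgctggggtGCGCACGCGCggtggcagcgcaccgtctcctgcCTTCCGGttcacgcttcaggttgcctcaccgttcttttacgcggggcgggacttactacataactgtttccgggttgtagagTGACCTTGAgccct
Cox6b1, ETS match, chr7:30626065-30626364: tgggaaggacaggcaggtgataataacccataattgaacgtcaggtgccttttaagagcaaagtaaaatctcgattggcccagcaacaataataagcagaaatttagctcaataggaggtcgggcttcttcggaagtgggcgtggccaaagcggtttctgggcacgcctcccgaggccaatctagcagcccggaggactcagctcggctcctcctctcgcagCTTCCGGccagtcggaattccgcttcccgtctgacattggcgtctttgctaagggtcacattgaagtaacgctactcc

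The arrays had been scaled by the authors to a 2% trimmed mean of 1000, and their median signals were 462.0, 387 and 398 on the FoxO1-, FoxO3- and FoxO4-labelled arrays. The targeted gene did not follow the label on the first array: the brightest Foxo1 probe set read 2778 there, 563 on the FoxO3-labelled array and 1827 on the FoxO4-labelled array. The Foxo1 log2 ratio to the control was 1.25. Foxo3 on its own array stood at 0.00 against the implied control, and its brightest probe set read 2379.7, 1573 and 386, lowest on the FoxO4-labelled array. Foxo4 on its own array stood at -0.64, from probe sets of opposite direction: the brighter read 1799, 345 and 80.4 and the other 188, 163 and 763. The arrays are therefore named by their labels throughout. Signals of the 3′ and 5′ probe sets of the actin control stood in a ratio of 6.31, 5.50 and 3.45 on these arrays, beside 2.56 in the implied control, and those of Gapdh in a ratio of 5.0, 5.90 and 2.23, beside 2.68. The arrays thus differed from the control in this measure, most of all those labelled FoxO1 and FoxO3. The part of RNA quality in the differences below was not tested.

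Most subunit genes were read brightly. By mean log2 signal, 62 of the 75 lay in the upper 25% of all genes, 57 in the upper 10%, and 6 below the median. The median signal of the 75 genes was 5665 on the FoxO1-labelled array, 6158.5 on the FoxO3-labelled array and 7203 on the FoxO4-labelled array, against 501, 439 and 441 over all genes. A signal depends on the probe as well as on the transcript, so these values set the members within the range of the array and do not rank their transcripts. Where a gene had several bright probe sets, they gave a measure of error within an array. Over 36 genes with 2 or more probe sets in the upper 25% of all probe sets, the median SD of the difference between arrays was 0.29 log2 for FoxO1 minus FoxO3, 0.31 for FoxO1 minus FoxO4 and 0.32 for FoxO3 minus FoxO4, and 0.34 for the deposited ratio. This spread covers probes only, not cultures or colonies.

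**Figure D1:**
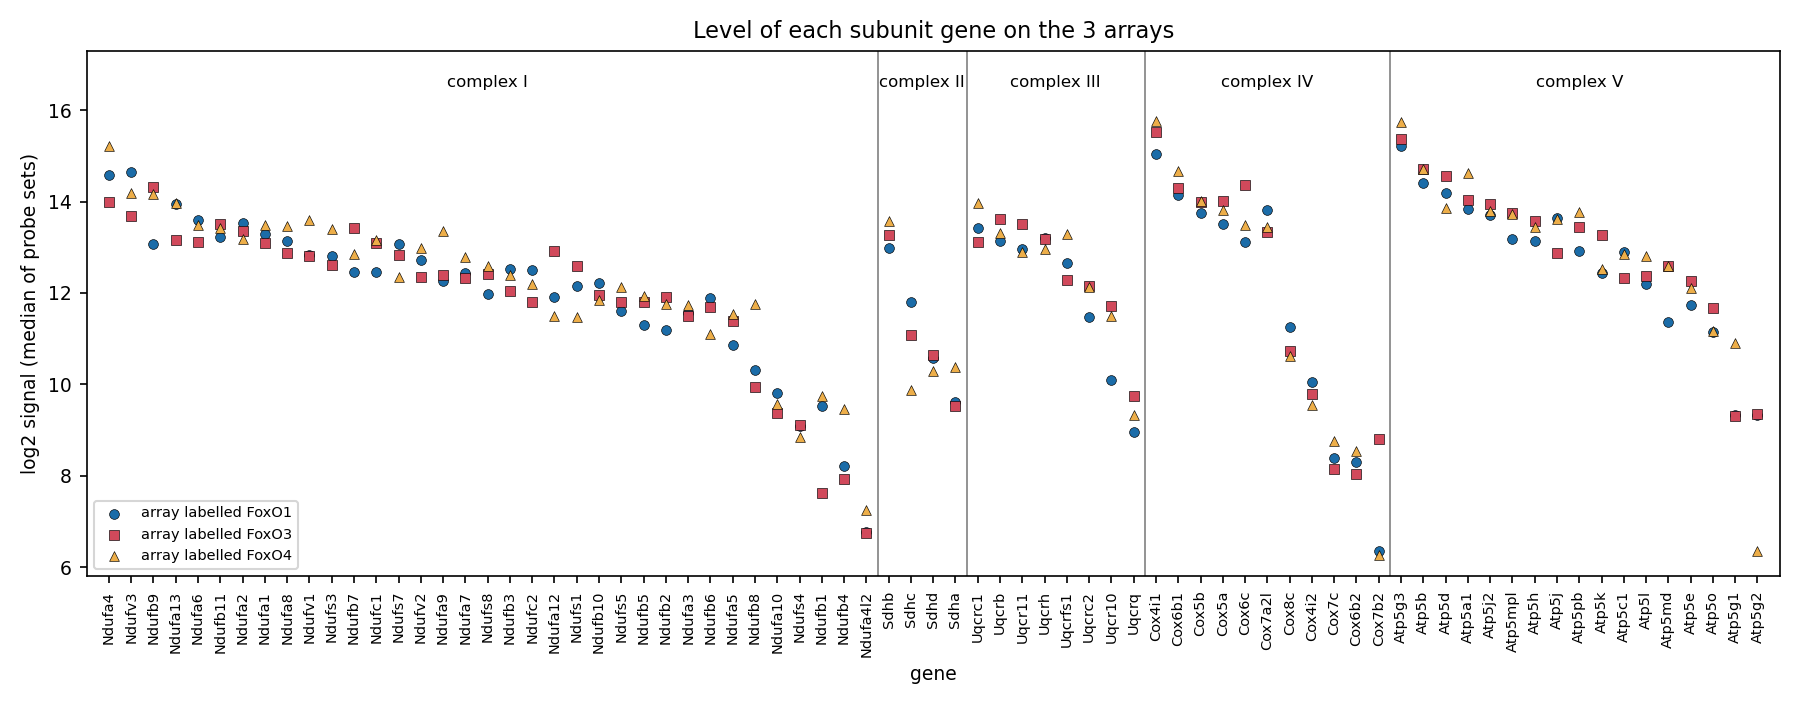
Each of the 75 subunit genes is a column, grouped by complex and ordered by mean level, and the y axis is its log2 signal (median of its probe sets, floored at the 20th percentile of the array). Circles, squares and triangles are the FoxO1-, FoxO3- and FoxO4-labelled arrays. The 3 arrays mostly lie close together, with Ndufb1, Cox7b2, Atp5g1, Atp5g2 and Atp5md among those where an array stands apart. For Atp5g2 the plotted level is that of a dim probe set reading 639, 650 and 81.0 on the FoxO1-, FoxO3- and FoxO4-labelled arrays. Its brightest probe set read 12017, 13709 and 16210, highest on the FoxO4-labelled array.

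Against the control, most subunit genes read lower on the FoxO1-labelled array. The median log2 ratio of the 75 genes was -0.80, with an interquartile range from -1.10 to -0.40, and 67 of 75 lay below 0. Over all genes the median was 0.00. In RNA from a whole culture, fewer cells of a type and less RNA per cell cannot be told apart. At least 2-fold lower were 30 of 75 members, where the background over all genes was 17.1%, and at least 2-fold higher were 2, against a background of 18.8%. Among the 62 brighter members, 27 were at least 2-fold lower and 0 higher, with a median of -0.88; the background in that range of signal was 11.0% in each direction and its median -0.10. With quantile normalization of this array and the control signal implied by the ratio, the median of the members moved to -0.50 and 63 lay below 0, but the count of at least 2-fold lower genes fell to 11, with a background of 16.8%. In that setting the peripheral stalk genes of ATP synthase, described below, had a median of -1.07, the small complex III subunits -0.83 and the core complex I subunits -0.43. Deposited ratios are rounded to 0.1, and 7 genes sat exactly at a ratio of -1.0: Ndufa3, Uqcrb, Uqcrfs1, Cox4i1, Atp5j, Atp5j2 and Atp5mpl. Just outside lay Ndufb5 at -0.95 and Sdhb, Cox7a2l and Atp5md at -0.90.

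The authors' change calls, made per probe set, gave 57 decreases, 4 marginal decreases, 90 calls of no change and 2 increases among the 153 member probe sets. Decrease calls came to 37.3% of them, against 4.21% of all probe sets on the array, where increases made up 1.26%. Decrease calls are made more often on bright probe sets. Among the 123 member probe sets in the upper 25% by signal the share was 44.7%, against 12.1% of all such probe sets. By gene, 42 of 75 had at least 1 decrease call: 18 of 35 in complex I, 1 of 4 in complex II, 6 of 8 in complex III, 6 of 11 in complex IV and 11 of 17 in complex V.

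**Figure D2:**
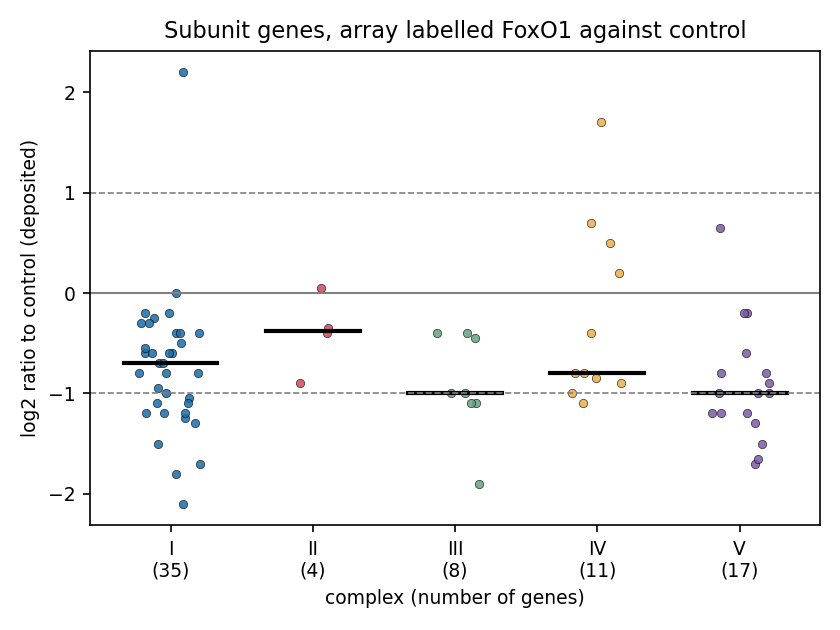
Each point is a subunit gene, the x axis gives the complex with its number of genes, and the y axis is the deposited log2 ratio of the FoxO1-labelled array to the control (median over probe sets). Thick bars are medians (-0.70, -0.38, -1.0, -0.80 and -1.0 for complexes I to V) and dashed lines mark a 2-fold difference. Most points lie below 0, with Ndufb4 at 2.20 and Cox7c at 1.70 as the highest.

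In complex I, 33 of 35 genes lay below 0 and 13 were at least 2-fold lower, with a median of -0.70. Ndufs5, a small accessory subunit on the intermembrane side, had the lowest ratio of all members. Its signal was 3122, 3579.5 and 4489.7 on the FoxO1-, FoxO3- and FoxO4-labelled arrays, beside 13383 in the implied control, and its ratio was -2.10 with a decrease call. All 3 arrays lay below the implied control. Ndufb7, an accessory subunit of the membrane arm, gave 8887, 16219 and 10698 at its brighter probe set, beside 26939 in the implied control, with decrease calls at both probe sets and a ratio of -1.70. Other accessory subunits in this range were Ndufb1 at -1.80, Ndufb8 at -1.50, Ndufc1 at -1.30 and Ndufa5 at -1.25. The 6 core subunits, the conserved proteins among which are the carriers of the flavin and the iron-sulfur centres, all lay below 0, from -1.10 for Ndufs3 to -0.50 for Ndufv1, with a median of -0.65. The 27 accessory subunits had a median of -0.80. Ndufa4, since recognised as a cytochrome oxidase subunit, and its paralog Ndufa4l2 lay at -0.20 and -0.30, and without them the complex I median was -0.80.

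The lower accessory genes also included some with high signals on all arrays. Ndufa6 read 12309, 8826 and 11496 on the FoxO1-, FoxO3- and FoxO4-labelled arrays, beside a ratio of -1.20, and Ndufb10 read 4750.3, 3957 and 3695, also at -1.20, each with a decrease call. Ndufc1 had decrease calls at both probe sets, with ratios of -1.4 and -1.2. Ndufs3, a core subunit, read 7167, 6246 and 10801, with a ratio of -1.10 and a decrease call. It was lower on the FoxO1- and FoxO3-labelled arrays than on the FoxO4-labelled one. Ndufb2 was a case of disagreement: its brighter probe sets gave -1.2 and -1.1 with decrease calls, and a dim one read 984, 41.2 and 119, with a ratio of 3.6 and a call of no change.

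Some complex I genes lay near the control. Ndufc2 lay at 0.00 over 4 probe sets, Ndufa2 at -0.20 and Ndufs4, a matrix arm subunit, at -0.30. Ndufa10 had a gene value of -0.25 from probe sets that disagreed: the bright one read 3029, 4923 and 5673.5, with a ratio of -1.3 and a decrease call, and the dim one 267, 88.5 and 103, with 0.8 and a call of no change. Ndufs4 read 4070.2, 4309.5 and 6017 at its brightest probe set, with a ratio of -0.3 there too. Ndufs8, a core subunit with 6 probe sets, ran from -0.9 to 0.3, with decrease calls at 2 of them. Across all complexes, 15 of the 44 genes with several probe sets had ratios of both signs.

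Ndufb4 was the highest member at 2.20, and this value rests on a dim probe set with a call of no change. It read 298, 242 and 698.5 on the 3 arrays, and the implied control, at 64.8, lay under the floor. A pair of probe sets shared with the related symbols Ndufb4b and Ndufb4c, which are outside the member rule, read 6139, 6648 and 5655 and 2463, 2669 and 3387. Their ratios were -1.1 and -1.3, each with a decrease call, opposite in sign to the member probe set.

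Complex II was the group with the fewest genes, and its median was -0.38 with 0 of 4 at least 2-fold lower. With the brightest probe set of each gene, or with plain probe sets only, that median was -0.90, so it does not set complex II apart from the other complexes. Sdhb, the iron-sulfur subunit, gave 8041, 9917 and 12198.5 on the FoxO1-, FoxO3- and FoxO4-labelled arrays, with a ratio of -0.90. Sdhd, a membrane anchor, lay at -0.40, between -0.9 at its brighter probe set and 0.1 at the other. The flavoprotein subunit Sdha lay at 0.05 over 4 probe sets, of which the brighter pair gave -0.3 and 0.4. Sdhc, the other membrane anchor, had a gene ratio of -0.35, the middle of 0.7 and -1.4 with a decrease call, so its probe sets disagreed in sign.

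Complex III genes all lay below 0, with a median of -1.0, and 5 of 8 were at least 2-fold lower. The 5 small subunits had a median of -1.10 and 4 of them were at least 2-fold lower. Uqcrq, a small ubiquinone-binding subunit, had the lowest ratio at -1.90; its brightest probe set read 5095, 7425 and 6869, beside 23411 in the implied control, with a decrease call. Uqcr11 and Uqcrh, the hinge protein, lay at -1.10, and Uqcrb at -1.0. Among the larger subunits, the Rieske iron-sulfur protein Uqcrfs1 lay at -1.0, and the core proteins Uqcrc2 and Uqcrc1 at -0.45 and -0.40. The brightest probe set of Uqcrc2 gave -0.9 with a decrease call, and the other 0.0 with a call of no change. Uqcr10 lay at -0.40, with probe sets from -4.2 to 0.1, all called unchanged.

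Complex IV had a median of -0.80, and with plain probe sets only (9 genes) the median was 0.00. At least 2-fold lower were 2 of 11 genes (18.2%), near the background of 17.1%, and 1 was higher (9.09%), against 18.8%. The general subunits Cox4i1, Cox5a, Cox5b, Cox6b1 and Cox6c lay below 0, with Cox4i1 at -1.0, Cox5b at -0.85, Cox6b1 and Cox6c at -0.80 and Cox5a at -0.40. Cox4i1, which regulates the enzyme's activity, read 33748, 47262 and 55438 on the FoxO1-, FoxO3- and FoxO4-labelled arrays, beside 67496 in the implied control. The FoxO1-labelled array was the lowest of the 3. Cox7c was the exception among general subunits at 1.70. Its probe sets were dim, at 340.3, 358 and 1018 and at 333, 221.5 and 183, with ratios of 0.6 and 2.8 and calls of no change. Cox7a2l, a factor of respiratory supercomplexes, lay at -0.90 with decrease calls at all 3 probe sets. Of the 4 isoform genes known from lung or testis, 3 lay above 0: Cox8c at 0.70, Cox6b2 at 0.50 and Cox4i2 at 0.20. Their probe sets all had calls of no change. The other, Cox7b2, lay at -1.10. Cox7b2 read 23.7 on the FoxO1-labelled array and 50.8 in the implied control, both under the floor of 81.2, with a call of no change. Its deposited ratio passes 2-fold and is counted above, in complex IV and among the 30, but it compares readings in the range of background.

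In complex V, 16 of 17 genes lay below 0 and 10 were at least 2-fold lower, with a median of -1.0. All 4 genes of the peripheral stalk, which holds the catalytic head still against the turning rotor, were at least 2-fold lower: Atp5o at -1.65, Atp5h at -1.50, Atp5pb at -1.20 and Atp5j at -1.0. Their median was -1.35. The brighter probe set of Atp5o gave -1.3 with a call of no change, and the dimmer gave -2.0 with a decrease call. The probe set of Atp5h that carried a decrease call read 7593, 9619 and 12145 on the FoxO1-, FoxO3- and FoxO4-labelled arrays, beside 26439 in the implied control, and its other probe set read 10597, 15260.3 and 10284, beside 24346. In the catalytic F1 head, Atp5e lay at -1.70, Atp5d at -1.30 and Atp5b at -1.20. The only probe set of Atp5e and both of Atp5d had calls of no change. Atp5b, the catalytic beta subunit, read 21773, 26714 and 26656, beside 50020.5 in the implied control, with a decrease call.

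The other F1 genes lay higher. Atp5a1, the alpha subunit, had a ratio of -0.20, with a decrease call at its brightest probe set (-0.2) and an increase call at its dimmest (1.3). Atp5c1, the gamma subunit, stood at 0.65, between -0.8 at a bright probe set reading 26562 on the FoxO1-labelled array and 2.1 with an increase call at one reading 2197. The 3 genes that encode the same c subunit of the rotor ring lay at -0.80 for Atp5g2 and Atp5g3 and -0.20 for Atp5g1. At the brightest probe sets of Atp5g1 and Atp5g2 the ratios were -1.4 and -1.5, each with a decrease call. The other membrane subunits Atp5k, Atp5j2, Atp5mpl, Atp5md and Atp5l ran from -1.20 to -0.60.

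**Figure D3:**
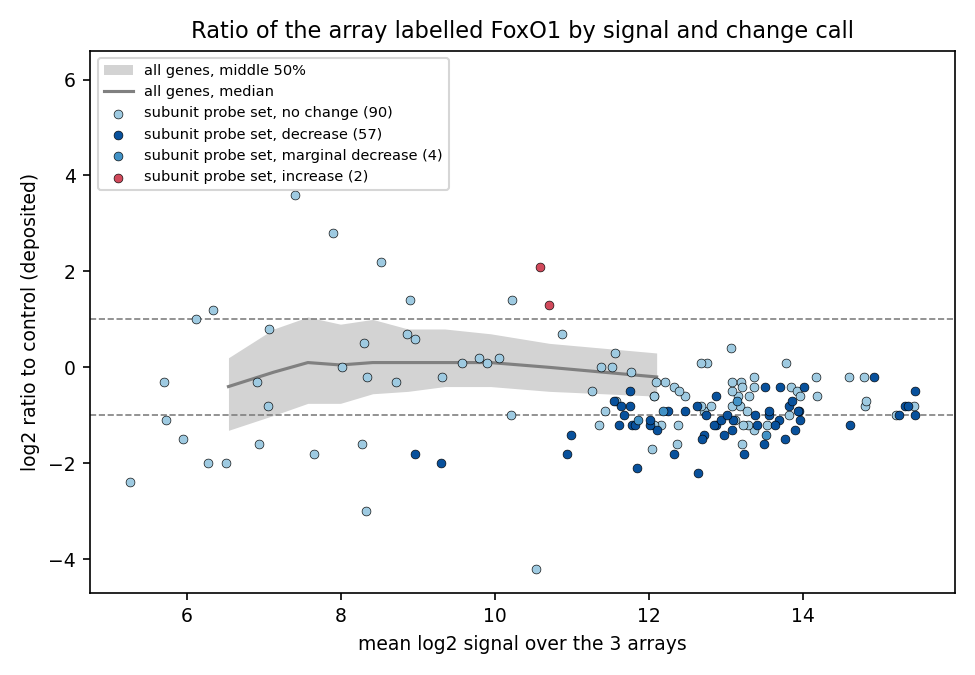
Each point is a subunit probe set, coloured by the authors' change call, with its mean log2 signal over the 3 arrays on the x axis and the deposited log2 ratio of the FoxO1-labelled array to the control on the y axis. The grey band and line give the middle 50% and the median of all genes in 10 bins of signal. Decrease calls (57) gather among bright probe sets between -0.2 and -2.2, while the dim probe sets scatter widely on either side of 0.

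The ratio of all genes itself varied with signal, and in the brightest 10% of genes, 1820 in number, its median was -0.20 with 12.9% at least 2-fold lower. The 57 members in that range had a median of -0.90 and 26 were at least 2-fold lower. Outside the bright range the members showed less of a common direction. Among the 30 member probe sets below the upper 25% by signal, 17 ratios lay below 0 and 12 above, with a median of -0.25, while among the 123 above it 110 lay below 0 and 11 above.

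Between the 3 lines themselves the medians of the subunit genes lay closer to 0. FoxO1 minus FoxO3 had a median of -0.14 log2 over the 75 genes, where all genes had 0.15. At least 2-fold lower were 5 and higher 1, against backgrounds of 15.8% and 19.6%. For this pair the 62 brighter members had a median of -0.18, beside -0.06 for all genes as bright. With quantile normalization the members had -0.04 and all genes 0.00. In each pair the all-gene median equals the difference between the floors of the arrays, which is the value of a gene at the floor on both. FoxO1 minus FoxO4 had a median of -0.24 (all genes 0.07), with 5 lower and 1 higher against 15.0% and 18.7%; with plain probe sets only, 10 of 60 were lower and 4 higher. FoxO3 minus FoxO4 had a median of -0.05 (all genes -0.08), with 6 lower and 5 higher against 17.0% and 16.4%. In each pair the share of members past 2-fold was below that of all genes. Among the 62 brighter members, 3, 4 and 6 passed 2-fold in these pairs, against 23.2%, 17.2% and 21.7% of all genes as bright.

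**Figure D4:**
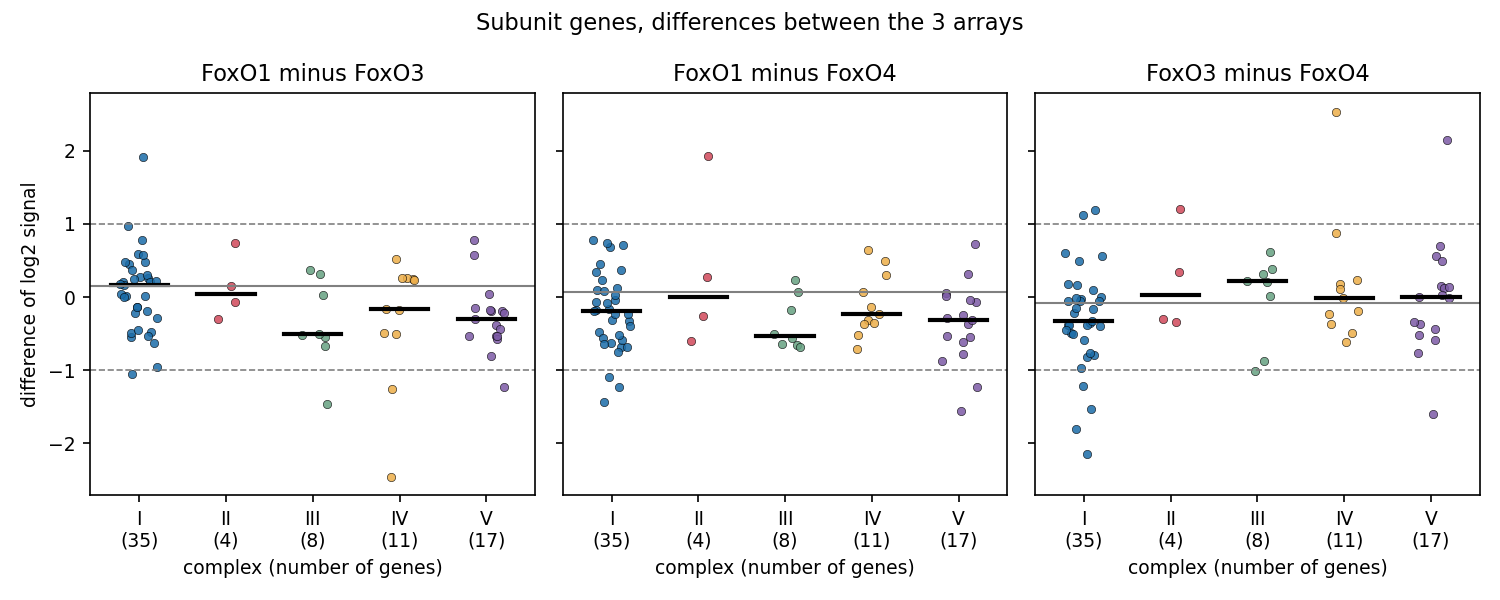
The 3 panels give the difference of log2 signal between arrays (y axis), gene by gene, for the complexes on the x axis with their numbers of genes. Black bars are medians of the complex, the grey line is the median of all genes, and dashed lines mark 2-fold. Most genes lie within 2-fold in every panel, and complex V lies mostly below 0 in the first panel (14 of 17).

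Complex I stood at a median of 0.16 for FoxO1 minus FoxO3, beside 0.15 for all genes, at -0.19 for FoxO1 minus FoxO4 and at -0.33 for FoxO3 minus FoxO4, with 27 of 35 below 0 in the last. That last median was -0.16 with a floor at the 40th percentile, -0.15 in the 30 brighter genes and -0.05 in the 19 genes with several probe sets. Its genes went in either direction within each pair. In FoxO1 minus FoxO3, Ndufv3 lay at 0.97 and Ndufb9 at -1.05. In FoxO1 minus FoxO4, Ndufb6 lay at 0.78 and Ndufs7, a core subunit with an iron-sulfur centre, at 0.74, while Ndufv1, which binds NADH, lay at -0.75. In FoxO3 minus FoxO4, Ndufa12 lay at 1.19 and Ndufs1, the largest iron-sulfur subunit, at 1.13. Ndufs1 read 4516, 6160.1 and 2823 on the FoxO1-, FoxO3- and FoxO4-labelled arrays, lowest on the last.

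Complex III had medians of -0.51 for FoxO1 minus FoxO3, -0.53 for FoxO1 minus FoxO4 and 0.21 for FoxO3 minus FoxO4, of which the first and the last moved to -0.11 and -0.22 with the brightest probe set of each gene. Its core and small subunits took different places. Between the FoxO3- and FoxO4-labelled arrays, all 5 small subunits were higher on the former, by 0.20 to 0.62 as gene medians. The brightest probe set of Uqcr10, however, gave -0.56. Uqcrfs1 and Uqcrc1 lay at -1.01 and -0.87. Uqcrc2 lay at 0.01, the middle of -0.75 at its brightest probe set and 0.77 at the other. Several of these differences are within the spread of probe sets. Uqcrc1 read 10954.5, 8836 and 16120.2 on the FoxO1-, FoxO3- and FoxO4-labelled arrays, and Uqcrfs1 read 6433, 4979 and 10007, each highest on the FoxO4-labelled array. Uqcr11 read 7962, 11644 and 7596, highest on the FoxO3-labelled array. Uqcrq had the lowest value of the complex in FoxO1 minus FoxO3, at -1.47, but its brightest probe set gave -0.54.

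Complex IV had medians of -0.16, -0.23 and -0.01 in the same order of pairs. All 6 general subunits lay below 0 in FoxO1 minus FoxO4, between -0.14 for Cox5b and -0.72 for Cox4i1. Cox6c stood out in FoxO1 minus FoxO3 at -1.25: its probe sets read 31533.5, 47159 and 38549 and 2482, 9403 and 3402, highest on the FoxO3-labelled array at each. Cox5a read 12903, 20249 and 17223 at its brightest probe set, with the same order of arrays.

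Complex V had medians of -0.30, -0.32 and 0.00. In FoxO1 minus FoxO3, 14 of 17 genes lay below 0, from -1.23 for Atp5md and -0.81 for Atp5k, an e subunit gene, to 0.77 for Atp5j. The 5 membrane subunits outside the c ring and stalk lay below 0 as gene medians in FoxO1 minus FoxO3, with a median of -0.58, and in FoxO1 minus FoxO4, with a median of -0.55. For Atp5k this depended on the probe set. A pair with decrease calls against the control read 5567, 9853 and 7519.9 and 2756.5, 4827 and 3260.5, highest on the FoxO3-labelled array, but the brightest read 12270.3, 11019 and 5889.7, with differences of 0.16 and 1.06 in these pairs. Complex II had medians of 0.04, 0.00 and 0.02, which took other signs under other scalings or probe sets and carry no direction.

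Few genes were 2-fold or more away from each of the other arrays with the same sign. The FoxO1-labelled array had 1 such gene of 75, against 15.9% of all genes, the FoxO3-labelled array had 2, against 15.3%, and the FoxO4-labelled array had 4, against 14.0%. These shares cover genes of every signal, most members were bright, and no share among genes as bright is given for this rule. Atp5md, a small membrane subunit that helps ATP synthase to form dimers, read 2629.5 on the FoxO1-labelled array, 6158.5 on the FoxO3-labelled array and 6191 on the FoxO4-labelled array. It was lower on the first by -1.23 and -1.24. Ndufb1, an accessory subunit, read 736, 196 and 863, and lay -1.91 and -2.14 lower on the FoxO3-labelled array. Each of these 2 genes rests on 1 probe set. Cox7b2, a testis isoform, read 447 on the FoxO3-labelled array and was at the floor on the other arrays, which is 81.2 and 77.3. Its differences of 2.46 and 2.53 depend on that floor.

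On the FoxO4-labelled array, Atp5g1, Ndufb4 and Ndufb8 were higher and Sdhc lower. The bright probe set of Atp5g1 read 5134, 5419 and 10732.5 on the FoxO1-, FoxO3- and FoxO4-labelled arrays, a difference of 1.06 and 0.99, close to 2-fold. Its gene value of 1.56 and 1.60 also draws on a dim probe set. For Ndufb8 the bright probe set read 10727, 13359 and 14419, with differences of 0.43 and 0.11, so the gene value of 1.44 and 1.81 came from a dim probe set at 152, 65.4 and 828. Sdhc gave 5332, 2816 and 431 at a probe set that may bind related transcripts (suffix x) and 2420, 1658 and 2065 at the other, where the FoxO4-labelled array lay between the others. Ndufa9, at 1.10 and 0.96, was just outside the rule.

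The control signal implied by the FoxO1 ratio also allows the other arrays to be set beside it. That comparison was added after values were seen and is approximate. All 3 values share this 1 control, so their common direction is not independent. Against it, the FoxO3-labelled array had a median of -0.67 over the members, with 17 at least 2-fold lower and 2 higher (backgrounds 17.0% and 15.2%), and the FoxO4-labelled array had -0.48, with 22 lower and 2 higher (16.9% and 15.7%). All genes stood at -0.15 and -0.11. With quantile normalization the members' medians were -0.46 and -0.40, beside -0.05 for all genes on each. In that setting 13 and 18 of 75 were at least 2-fold lower and 3 and 2 higher. The background of these counts in that setting is not given. The values that follow are without that normalization. The peripheral stalk of ATP synthase had medians of -1.35, -1.09 and -1.10 on the FoxO1-, FoxO3- and FoxO4-labelled arrays, and the 5 small complex III subunits had -1.10, -0.50 and -1.03. Core complex I subunits had -0.65, -0.61 and -0.54. Complex IV had -0.80, 0.18 and -0.28, but its 7 brighter genes had -0.80, -0.51 and -0.28, so the sign on the FoxO3-labelled array turned without the dim genes. Ndufs5 lay at -2.10, -1.90 and -1.58, and Ndufa6, an accessory subunit, at -1.20, -1.68 and -1.30. Atp5a1 lay at -0.20, -0.01 and 0.59, and Cox5a at -0.40, 0.25 and 0.02, with no common direction.

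The ratios of members with and without a promoter motif were set side by side for the FoxO1-labelled array. The median was -0.80 for 14 genes with the NRF1 motif and -0.90 for 47 without, and -1.0 for 15 genes with the ETS motif and -0.80 for 46 without. For YY1 it was -1.0 for 9 genes, against -0.825 for 52. The 2 genes with the ERR motif, Atp5g3 and Sdhd, had a median of -0.60. Of the promoters printed above, Ndufs5 belongs to a gene at -2.10, Atp5h at -1.50, Cox6b1 at -0.80 and Sdhd at -0.40.

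Other mitochondrial genes give the setting of these values. Factors that assemble complex I had a median ratio of -0.10 on the FoxO1-labelled array, with 2 of 17 at least 2-fold lower and 2 higher, and those for complexes II to V had -0.25, with 5 of 30 lower and 5 higher. Regulators of mitochondrial biogenesis stood at 0.10, with 3 of 20 lower and 5 higher. Citric acid cycle enzymes had -0.40 (3 of 17 lower, 1 higher), and cytochrome c, cytochrome c1 and the inner membrane carriers -0.65 (4 of 14 lower, 1 higher), with Cycs, the mobile electron carrier, at -1.50. Import and folding genes had -0.70 (6 of 19 lower, 0 higher), and their medians were -0.89 for FoxO1 minus FoxO3 and -0.77 for FoxO1 minus FoxO4, beside -0.14 and -0.24 for the subunits. The 6 isoform genes of complex IV outside the members had -0.60 with 3 lower, and glycolytic enzymes -0.48 with 4 of 16 lower and 0 higher. Over all genes 17.1% were at least 2-fold lower and 18.8% higher. The counts of lower genes among assembly factors, regulators and citric acid cycle enzymes lay near or below that share. These lists are given by counts and medians only, and whether the subunits differ from them was not tested.

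Marker genes also differed in these comparisons. The differentiated muscle markers had medians of 1.28 for FoxO1 minus FoxO3, 3.27 for FoxO1 minus FoxO4 and 0.75 for FoxO3 minus FoxO4. In the same order, the myoblast markers had -0.42, 0.93 and 1.32, and the fibroblast markers 0.64, 0.45 and -0.02. The subunits had -0.14, -0.24 and -0.05 in these pairs. All 8 markers of differentiated muscle were at least 2-fold lower than the control on the FoxO1-labelled array, with a median of -3.70, and their summed signal was 12465, 5049.8 and 2284 on the 3 arrays, beside 162169 in the implied control. The 6 myoblast markers summed to 26456, 36389 and 16892, beside 69025. The 5 fibroblast markers summed to 56251, 9824 and 35633, beside 7135. On the 3 arrays 3, 1 and 1 of these 5 were at least 2-fold higher than the control, and 1 was lower on each. The backgrounds were 18.8%, 15.2% and 15.7% higher and 17.1%, 17.0% and 16.9% lower. The sums therefore do not stand for all 5 genes. Among 4 markers of other cell types, 0, 2 and 1 were at the floor on the 3 arrays. The part of these markers in the subunit ratios was not tested.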

How the data were processed

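Total RNA from 3 C2C12 lines, 1 array each, was measured on Affymetrix arrays of 45101 probe sets. The deposited intensity is the GCOS signal, scaled by the authors. The deposited log2 ratio and its change call compare each line with control RNAi, per the file headers, and the sources used here do not give GCOS settings. The FoxO1 ratio followed that array's signal relative to the others (r = 0.58 across probe sets), whereas the ratios for FoxO3 and FoxO4 did not (r = -0.01 and -0.00) and were not used. The implied control is the log2 FoxO1 signal minus the ratio, and it approximates the control array.

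Before log2, each array's signals below its 20th percentile were set to that percentile. A gene's level was the median over its 1-symbol probe sets (34958 of 45101), and a difference was the median of differences within probe sets. The ratio had no floor. Symbols came from the platform table, and 34754 probe sets matched RefSeq (GRCm38.p6). With 1 array a line, no p-value or SE exists, and the number of arrays limits the precision. The threshold was 2-fold. Any member could be named; those furthest from 0 or from the other arrays, paralogs and the lists' leading genes were chosen. The members, lists and comparisons were chosen with earlier results of these data known. Calculations were tested on simulated data with changes larger than the threshold. That checked the calculation and not the 2-fold counts on these arrays. Python 3.11.15, numpy 2.4.6, pandas 2.3.3 and matplotlib 3.10.9 were used.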

Additional observations from a re-analysis of the deposited data

How the results depend on the processing

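The members' medians, all together and by complex, and their counts past 2-fold, all together only, were recomputed for FoxO1 against control and the 3 pairs under up to 9 other settings, and 214 of 238 values stayed within the spread of probe sets (medians) or within 1.5 times (counts). The comparisons of the FoxO3- and FoxO4-labelled arrays with the implied control were recomputed only with quantile normalization and in the upper 25% by signal. The median over all members for FoxO1 against control ran from -0.90 to -0.50. The values that moved were as follows, and the cause was not tested. Counts were compared as numbers of genes and not as shares. The main setting held 75 members, against 60 with plain probe sets, 69 above the median signal, 62 in the upper 25% and 44 with several probe sets. Counts from settings with fewer genes are therefore not directly comparable with the main count. The count for FoxO1 against control (32 of 75, either way) was 13 of 75 with quantile normalization and 18 of the 44 members with several probe sets. The complex IV median (-0.80) was -0.41 with quantile normalization and 0.00 with plain probe sets only. The complex II median (-0.38) was -0.90 with the brightest probe set and with plain probe sets. For FoxO1 minus FoxO3 the count (6) was 3 in the upper 25% by signal and 3 in members with several probe sets. There complex I (0.16) gave -0.14 in members with several probe sets, complex II (0.04) gave -0.30 with plain probe sets and complex III (-0.51) gave -0.11 with the brightest. For FoxO1 minus FoxO4 the count (6) was 14 with plain probe sets, 4 higher and 10 lower, and 3 in members with several, and complex II (0.00) gave -0.60 with the brightest and with plain probe sets. For FoxO3 minus FoxO4 the count (11) was 7 with a floor at the 40th percentile, 6 in the upper 25% and 5 in members with several. There complex II (0.02) gave -0.43 with the brightest, -0.55 with plain probe sets and 0.34 in the upper 25% and in members with several, complex III (0.21) gave -0.22 with the brightest, and complex V (0.00) gave -0.36 with plain probe sets. The settings of several probe sets, upper 25% and difference of gene levels were chosen after seeing the data. The floor and the gene-level setting do not apply to the ratio. No paired analysis was possible because each line has 1 array. Colony, hairpin and culture cannot be told apart, and 31 of the 75 genes rest on 1 probe set.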

Other observations

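Probe sets that carry a member symbol together with another gene's symbol were outside the rule. There were 9, and 3 of them had decrease calls on the FoxO1-labelled array. The Ndufa11 and Ndufa11b probe set with such a call read 5159.9, 5079 and 5968 on the FoxO1-, FoxO3- and FoxO4-labelled arrays, with a ratio of -1.1. A probe set shared by Ndufs6 and Ndufs6b read 4271.5, 9992 and 3982 on the same arrays, highest on the FoxO3-labelled array, with a ratio of -0.9 and a call of no change. The probe set shared by Ndufs5 and its pseudogene Ndufs5-ps read 3273, 2751 and 1198.5, lowest on the FoxO4-labelled array, while the probe set of Ndufs5 alone was highest there at 4489.7. Its ratio was -0.7, where that of Ndufs5 alone was -2.10. A probe set shared by Ndufa13 and Yjefn3 read 1141, 433 and 904 with a ratio of 2.1 and a call of no change, while the probe set of Ndufa13 alone lay at -0.40.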
